A study of Mus musculus with 32 samples.

Results

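The collagen genes are the rows of the deposited gene table whose symbol reads Col, a number, the letter a and a number, each of which encodes 1 collagen alpha chain. The rule found 44 of 55103 rows: 11 fibrillar chains, 6 type IV chains of basement membranes and 27 chains of all remaining types. All 44 were found in RefSeq by symbol. A filter on low counts kept 39 of them for testing, 10 fibrillar, 5 basement membrane and 24 other. The 5 left out were Col2a1, Col4a6, Col9a1, Col9a2 and Col22a1, whose highest count in any library was 88.

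The samples were KPC36 tumours of the mouse, a tumour cell line used as a model of pancreatic ductal adenocarcinoma, profiled by bulk sequencing of RNA from whole tumour pieces. The 32 libraries form 4 groups of 8: tumours treated with carbon ions, their untreated controls, tumours treated with photons (the radiation of conventional radiotherapy), and a second set of untreated tumours that served as controls for photons. Tumours were collected on days 4 and 7, with controls at the same times, but the labels do not tie a library to a day. Host strain, age, radiation dose and site of growth are not given in the sources used here. The study asked how carbon ion and photon treatment differ in the tumour's gene expression. Nothing in the labels says that the libraries of a group came from separate mice, so the p-values measure only the spread between these libraries. In bulk tissue, fewer cells of a type and less RNA per cell cannot be told apart.

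Collagens are the main structural proteins of the extracellular matrix. Chains of the fibrillar types I, III and V join into triple helices that are trimmed outside the cell and cross-linked into fibrils, which give connective tissue its tensile strength, while type IV chains form the sheet-like network under epithelia and around vessels. Type VI chains form beaded filaments near cell surfaces, and types XV and XVIII carry sugar side chains and lie close to basement membranes. Pancreatic ductal tumours are known for a dense stroma, in which fibroblasts make most of the fibrillar collagen.

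Library totals ran from 13892423 to 71645740 estimated counts. The labelled malignant cell type was checked against 10 epithelial markers, whose summed level lay between 2582 and 5782 CPM (counts per 1000000 of a library's scaled total) in the 32 libraries. Each group also held fibroblast, endothelial, mural and macrophage markers. Skeletal muscle markers spread most: their sum over 10 genes ran from 0.849 to 3445 CPM, and it exceeded 1000 CPM in 7 libraries, 2 carbon-ion controls, 1 carbon-ion-treated tumour and 4 photon controls. Of the skin keratinocyte markers, Krt5 and Krt1 were at 0 throughout the carbon-ion-treated group. Library titles begin with D or M, letters whose meaning the labels do not give. 4 carbon-ion controls and 3 carbon-ion-treated tumours have a D, and the other libraries of that arm and all of the photon arm have an M.

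The promoter sequences that follow belong to the genes on which the results turn, the type V and VI chains that passed the test after photons, together with the most abundant fibrillar chains for which a stretch outside annotated genes could be shown. Each is 120 bases, 5′ to 3′ in the direction of the gene, from RefSeq's GRCm38.p6 build, and capitals mark a GC box (GGGCGG, or CCGCCC on the other strand), a CCAAT box (CCAAT, or ATTGG) or a TATA box (TATAAA, this strand only). The positions are chr9:20815118-20815237 for Col5a3 on the minus strand, chr10:76726169-76726288 for Col6a1 on the minus strand, chr10:76623631-76623750 for Col6a2 on the minus strand, chr6:4505373-4505492 for Col1a2 on the plus strand and chr1:45311418-45311537 for Col3a1 on the plus strand.
Col5a3: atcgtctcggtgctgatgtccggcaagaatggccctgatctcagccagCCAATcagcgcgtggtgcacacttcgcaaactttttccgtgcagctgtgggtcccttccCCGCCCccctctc
Col6a1: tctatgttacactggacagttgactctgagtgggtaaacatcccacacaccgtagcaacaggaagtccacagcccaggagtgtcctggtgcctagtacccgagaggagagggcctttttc
Col6a2: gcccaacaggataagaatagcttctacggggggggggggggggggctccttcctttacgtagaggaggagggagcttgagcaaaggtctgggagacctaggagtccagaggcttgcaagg
Col1a2: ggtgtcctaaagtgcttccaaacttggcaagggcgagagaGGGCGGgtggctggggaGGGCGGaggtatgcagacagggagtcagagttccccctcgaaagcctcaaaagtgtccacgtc
Col3a1: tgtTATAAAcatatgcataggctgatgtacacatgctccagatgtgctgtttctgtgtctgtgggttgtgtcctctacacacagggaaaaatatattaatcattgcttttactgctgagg
The Col5a3 stretch holds 1 CCAAT box and 1 GC box, that of Col1a2 holds 2 GC boxes, and that of Col3a1 holds 1 TATA box. None of these letters stands in the stretches of Col6a1 and Col6a2. Over the 250 bases before each start, a GC box was found in 57.9% of 38 promoters of 35 collagen genes and in 32.7% of 32851 mouse promoters, a CCAAT box in 34.2% and 33.8%, and a TATA box in 13.2% and 7.59%. A match is a description of these letters and no evidence of binding. Col15a1, Col4a1 and Col4a2 have promoter windows that lie within annotated genes, and Col1a1 and Col5a2 are named only.

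Several chains lie side by side in the genome. Col4a1 (chr8:11198423-11312889) and Col4a2 (chr8:11312805-11449287) stand head to head and share 85 bases, Col4a3 and Col4a4 stand head to head on chromosome 1 and share 114 bases, and Col4a5 and Col4a6 stand head to head on the X chromosome with 1274 bases between them. Col3a1 and Col5a2 converge on chromosome 1 with a gap of 24624 bases. Col6a1 and Col6a2 lie on the same strand of chromosome 10, 85161 bases apart. Where exons overlap (Col4a1 with Col4a2, Col4a2 also with Gm15419, Col3a1 with Gm47302, Col5a1 with 2810430I11Rik and Gm13372, Col15a1 with Gm12426), the counts could hold reads of the other gene, since the strand setting of the counting is not given in the sources used here.

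Fibrillar chains made up most of the collagen RNA. On the scale of CPM per kilobase of exon, averaged over the 4 groups, Col1a1 stood at 1028, Col1a2 at 639.8 and Col3a1 at 558. Next came Col6a1 at 146 and Col18a1, the source of endostatin, at 111. The lowest tested chain was Col25a1 at 0.0498. Neighbours in this order were often close: Col6a2 (85.7), Col5a1 (85.0) and Col12a1 (80.1) differed by less than the SD of any of them within a group. Together Col1a1, Col1a2 and Col3a1 held a median of 64.2% of all collagen counts, with a range of 55.5% to 70.8% over the 32 libraries.

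**Figure D1:**
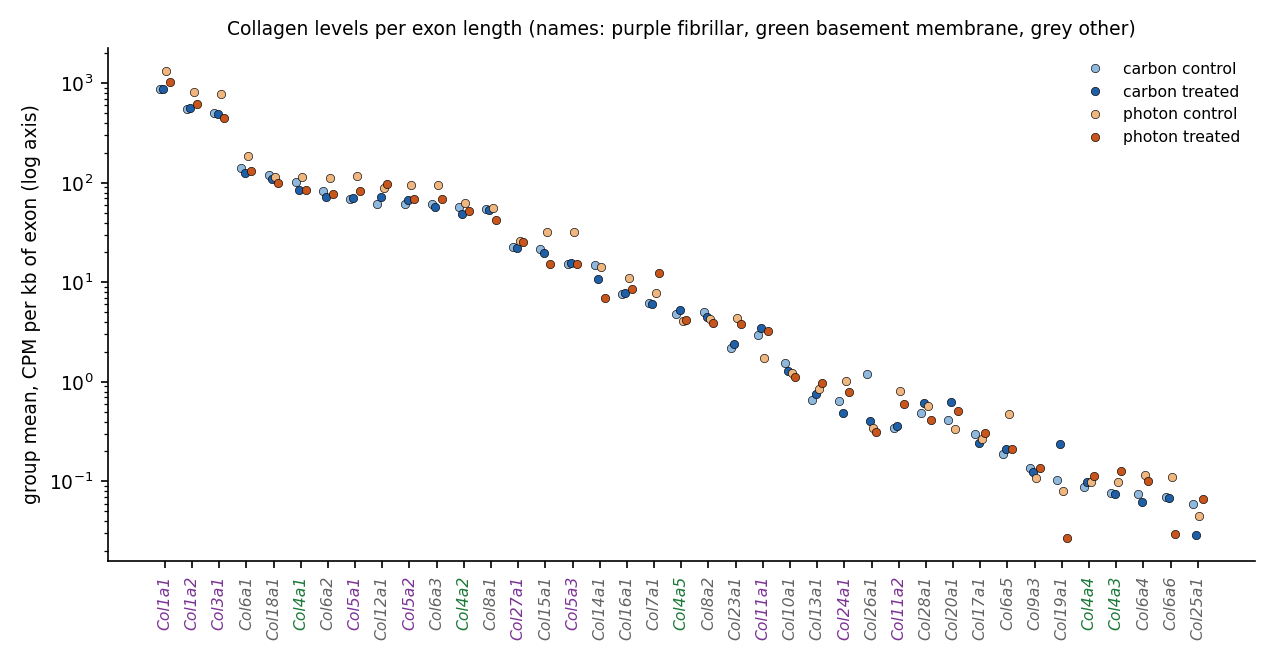
Level of each tested collagen gene in CPM per kilobase of exon (log axis), by class, with 1 point per group mean. Col1a1, Col1a2 and Col3a1 stand above all others in all 4 groups.

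As a share of each library's TMM-scaled total, the base of CPM throughout, mean collagen RNA was highest in the photon controls. It made up 2.50% ± 0.65 there (SD, n = 8), 1.85% ± 0.40 in the photon-treated tumours, 1.72% ± 0.42 in the carbon-ion controls and 1.71% ± 0.59 in the carbon-ion-treated tumours. The ranges overlap, with 1.91% to 3.78% in the photon controls and 1.40% to 2.50% after photons. Fibrillar chains held 1.87% ± 0.53 in the photon controls, 1.34% ± 0.31 after photons, 1.22% ± 0.35 in the carbon-ion controls and 1.23% ± 0.51 after carbon ions. The type IV chains held 0.12%, 0.0932%, 0.107% and 0.0911% in the same order. These sums were not tested, and each is dominated by its most abundant chains.

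**Figure D2:**
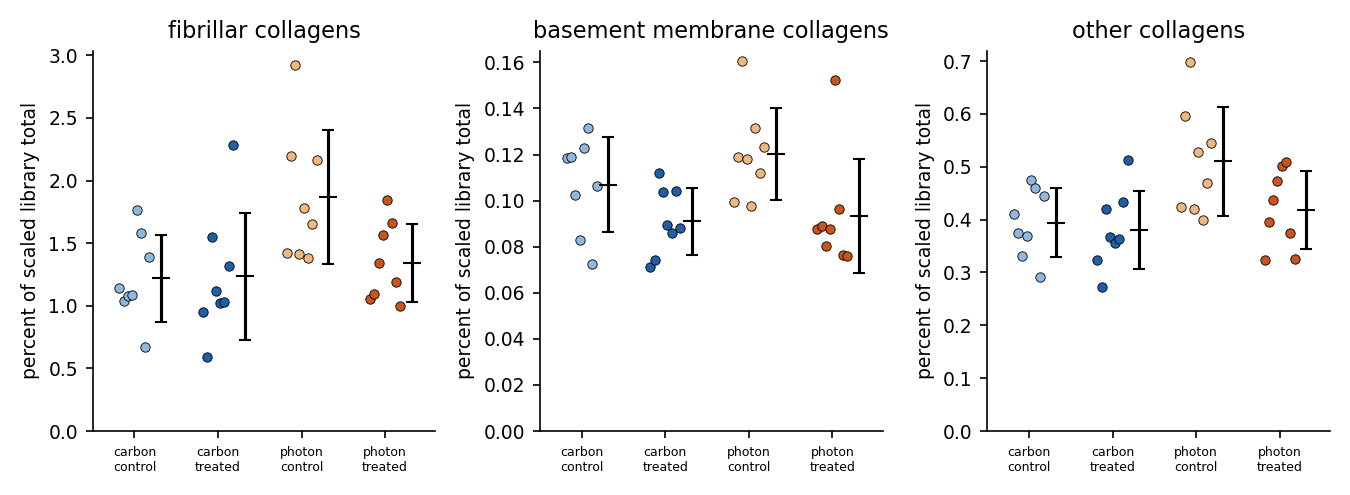
Summed counts of the fibrillar, basement membrane and other collagens as a percentage of the scaled total of each library, with 1 point per library and the group mean ± SD. The photon controls hold the highest fibrillar library, at 2.92%, and the 4 groups overlap in every panel.

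Photon treatment was followed by lower levels of 4 collagen chains: Col5a3, a minor fibrillar chain of type V, Col6a1 and Col6a2, partner chains of the type VI beaded filaments, and Col15a1, of the basement membrane zone. No collagen gene passed as higher. These 4 are 10.3% of the 39 tested, where 3.81% of all 20474 genes tested passed in either direction and 2.1% passed as lower (edgeR quasi-likelihood test, Benjamini-Hochberg adjusted p under 0.05). The abundant fibrillar chains Col1a1, Col1a2 and Col3a1 did not pass.

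Of Col15a1, the photon controls had a lowest, median and highest level of 114, 162 and 382 CPM and the photon-treated tumours 76.6, 81.2 and 123. Levels of a group of 8 libraries are given in that order throughout. All 8 treated libraries were below the control median, and the groups overlap only between the lowest controls and the highest treated tumours. Its mean went from 195 ± 87.2 to 92.7 ± 19.2 CPM (SD, n = 8 each), a log2 fold change of -1.07 (SE 0.24, edgeR adjusted p = 0.0135). Of Col5a3, the controls had 92.4, 145 and 449.5 CPM and the treated tumours 53.7, 84.1 and 153. Here 7 of 8 treated libraries were below the control median, and the highest control lay far above all treated libraries. The log2 fold change was -1.06 (SE 0.30, edgeR adjusted p = 0.0382).

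The type VI chains that passed, Col6a1 and Col6a2, moved by less, with less spread. Of Col6a1, the controls had 530.4, 722 and 1078 CPM and the treated tumours 429, 527 and 724, with 7 of 8 treated libraries below the control median. The log2 fold change was -0.49 (SE 0.14, edgeR adjusted p = 0.0387). Of Col6a2, the controls had 419.7, 638 and 919 CPM and the treated tumours 366, 460.2 and 612, with all 8 treated libraries below the control median. The log2 fold change was -0.52 (SE 0.14, edgeR adjusted p = 0.0323). Both groups overlap in each chain. The third main chain of the filament, Col6a3, had 705, 1075 and 1478 CPM in the controls and 523, 715 and 1086 after photons, with a log2 fold change of -0.49 that did not pass (SE 0.17, edgeR adjusted p = 0.0982). All 6 tested type VI chains had a fold change below 0, with a median of -0.50 on the log2 scale.

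**Figure D3:**
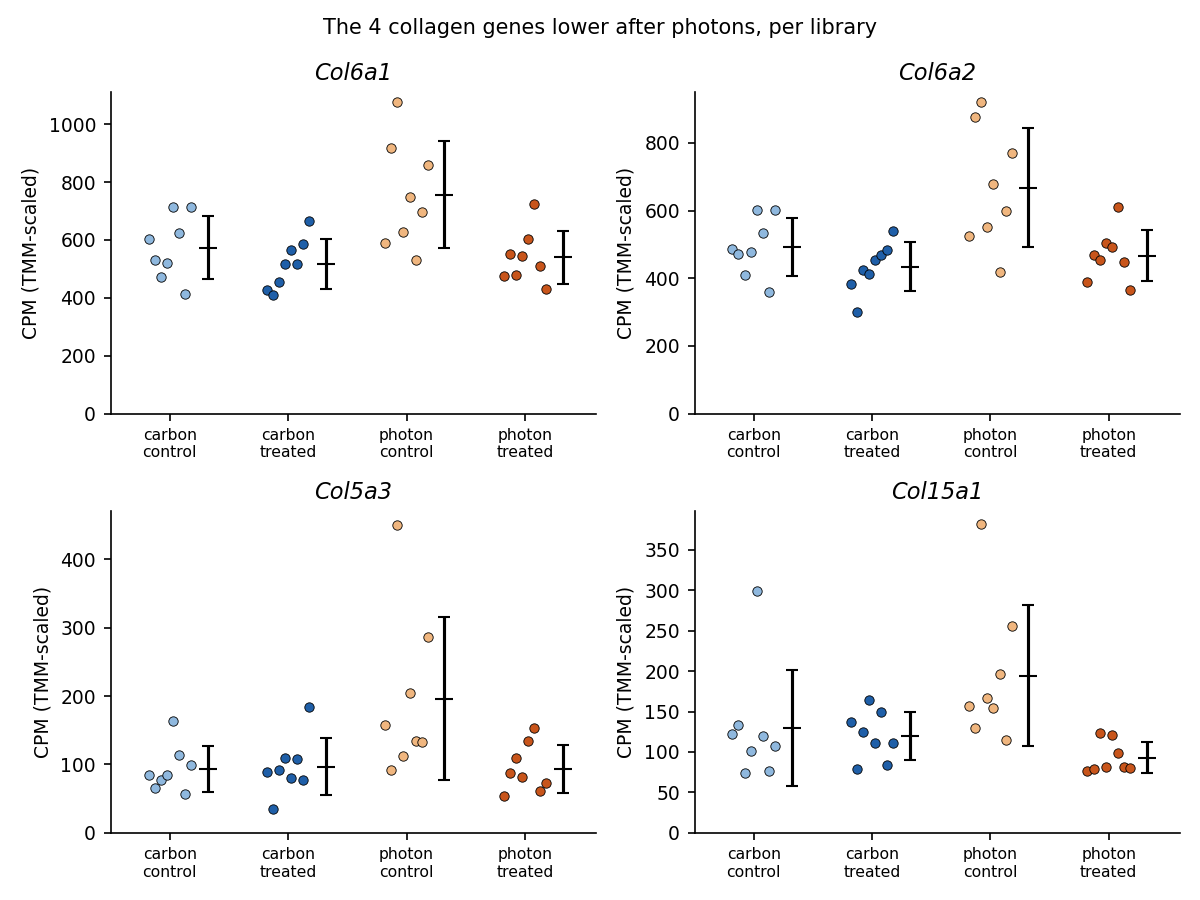
Level in CPM of the 4 collagen genes that passed the test after photons, in each library of the 4 groups, with the group mean ± SD. All 8 photon-treated libraries lie below the photon control median for Col15a1 and Col6a2, and 7 of 8 do for Col5a3 and Col6a1.

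The abundant fibrillar chains of types I, III and V had values below 0 that did not pass. Col3a1, the type III chain of distensible tissues, had 2785, 4117 and 8182 CPM in the photon controls and 1581, 2248 and 4180.0 after photons, a log2 fold change of -0.78 (SE 0.26, edgeR adjusted p = 0.0793). The type I chain Col1a1 had 5836, 7130.2 and 11498 CPM and then 4223, 6119 and 8080.5, a log2 fold change of -0.37 (SE 0.21, edgeR adjusted p = 0.324). For its partner Col1a2 the log2 fold change was -0.42 (edgeR adjusted p = 0.196), and 6 of 8 treated libraries were below the control median. In each of these chains the treated range overlaps the control range. The type V chains Col5a1 and Col5a2, which join type I fibrils and limit their diameter, had -0.50 (edgeR adjusted p = 0.202) and -0.46 (edgeR adjusted p = 0.119). Over the 10 fibrillar chains the median log2 fold change was -0.42, with 9 below 0, while 50.1% of all genes tested were below 0 with a median of -0.00. Over all 39 collagens 28 were below 0, or 71.8%.

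The type IV chains did not pass. Col4a1 had 619, 758 and 1006 CPM in the photon controls and 447, 533 and 929.7 after photons, and 7 of 8 treated libraries were below the control median. Its log2 fold change was -0.44 (SE 0.14, edgeR adjusted p = 0.0672), and that of Col4a2 was -0.27 (SE 0.14, edgeR adjusted p = 0.275). In both chains 1 treated library, number 5, stood above the rest of its group. Without that library Col4a1 and Col3a1 passed, with log2 fold changes of -0.57 (edgeR adjusted p = 0.0146) and -0.92 (edgeR adjusted p = 0.0478). Col4a3, Col4a4 and Col4a5 had fold changes above 0 that did not pass, and the class median of 0.04 was the value of Col4a5. Group means were at most 1.15 CPM for Col4a3 and Col4a4 and at least 26.6 CPM for Col4a5.

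How many collagens passed after photons depended on single libraries. Col15a1 passed in all 16 fits that left out 1 library of the photon arm, Col6a2 in 9, and Col6a1 and Col5a3 in 6 each. Only Col15a1 passed without any 1 of photon control 3, 5 or 8 or of photon-treated tumour 1, 3, 7 or 8, and 2 chains passed without photon-treated tumour 2. Calls over all genes also fell in those 8 fits, to between 239 and 562, from 781 with all libraries. Over the 16 fits the log2 fold change ran from -1.14 to -0.85 for Col15a1, from -0.58 to -0.43 for Col6a2, from -0.55 to -0.39 for Col6a1 and from -1.19 to -0.76 for Col5a3. With only the photon libraries in the fit, Col15a1, Col14a1 and Col6a6 passed and Col5a3, Col6a1 and Col6a2 did not.

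Markers of other cell types mostly had fold changes below 0 after photons, and few passed. All 14 fibroblast markers had fold changes below 0 after photons, with a median of -0.39, and 1 passed (Pdgfrb). Their summed level ran from 1396 to 2874 CPM in the controls and from 1376 to 2186 after photons. Of 10 endothelial markers 9 were below 0 and Tek and Emcn passed, with sums of 335 to 649 CPM and then 248 to 531, and all 8 mural markers (pericytes and smooth muscle) were below 0 with Rgs5 passing, with sums of 288 to 520 CPM and then 157 to 313. That mural list holds Des, which skeletal muscle also expresses, with a mean of 112 CPM in the controls and 22.7 after photons, while Rgs5 went from 113 to 71.1. All 8 macrophage markers were below 0 (median -0.35) and Csf1r and Mrc1 passed, with sums of 444 to 863 CPM and then 315 to 559.7. Of 10 epithelial markers 8 were above 0 and none passed at this threshold, with sums of 3092 to 4650 CPM and then 2582 to 4624. The part of these cells in the collagen values was not tested. Skeletal muscle markers summed to between 3.52 and 1418 CPM in the controls and between 0.849 and 369 CPM after photons. Without the 7 muscle-rich libraries, which left 4 photon controls, the log2 fold changes were -1.23 for Col15a1, -1.05 for Col5a3, -0.54 for Col6a1 and -0.56 for Col6a2. None of these passed in that smaller set, where 2 of 21112 genes passed in all.

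Carbon ion treatment was followed by no collagen change that passed the test. None of the 39 collagens passed, and none of all 20474 genes did (0% called, edgeR adjusted p under 0.05). At an unadjusted p under 0.05 there were 2 collagens, 5.13%, beside 5.75% of all genes, and DESeq2 called 17 of all genes and none of the collagens. Those 2 were Col26a1, with a log2 fold change of -1.5 (SE 0.69, edgeR adjusted p = 0.817), and Col25a1, a membrane-bound chain, with -0.93 (SE 0.46, edgeR adjusted p = 0.864). Their group means were at most 3.31 CPM for Col26a1 and 0.458 CPM for Col25a1, the lowest tested chain per kilobase.

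The chains that passed after photons were close to their controls in the carbon-ion arm. Of Col15a1, the carbon-ion controls had 74.2, 114 and 299 CPM and the treated tumours 79.4, 118 and 164, a log2 fold change of -0.11 (SE 0.24). Of Col5a3, the values were 56.1, 84.6 and 163 CPM and 34.8, 89.8 and 184, a log2 fold change of 0.06 (SE 0.29). The medians of treated and control tumours are close for both, and carbon-ion control 5 alone sets the top of the Col15a1 range. For Col6a1 the values were 413, 567 and 715 CPM and 411, 518 and 667, a log2 fold change of -0.15 (SE 0.14), and for Col6a2 they were 359.8, 483 and 603 CPM and 299, 440.0 and 538, -0.19 (SE 0.14). Col1a1 had 2816, 4899 and 7049.7 CPM in the controls and 2352, 4526 and 9621 after carbon ions. The treated tumours reach both lower and higher than the controls, and the log2 fold change was 0.01 (SE 0.21). Col4a1 had 439, 690.2 and 814 CPM and then 427, 536 and 683, with all 8 treated libraries below the control median and a log2 fold change of -0.26 that did not pass (SE 0.14, edgeR adjusted p = 0.909). Of the 39 collagens 21 had a fold change below 0, or 53.8%, beside 48.5% of all genes tested. The median over the fibrillar chains was 0.05 and over the type IV chains -0.03, beside 0.01 over all genes tested.

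**Figure D4:**
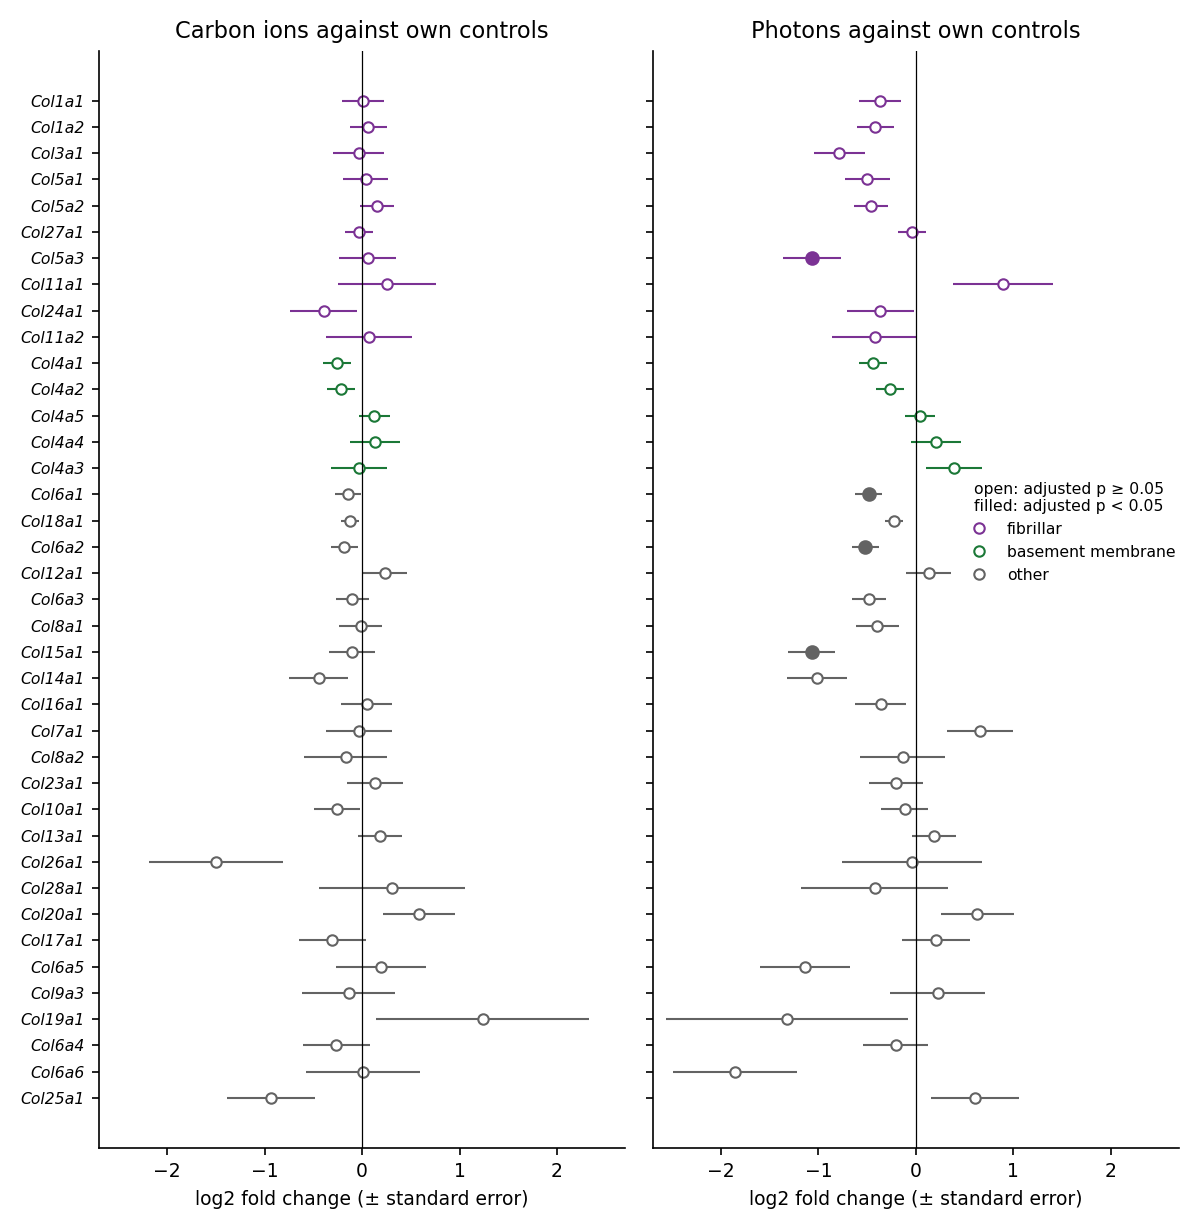
Log2 fold change ± SE of the 39 tested collagen genes after carbon ions (left) and after photons (right), each against the controls of its own arm, coloured by class, with filled points for an adjusted p under 0.05. Filled points appear only in the photon panel, for Col15a1, Col5a3, Col6a1 and Col6a2.

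The 2 effects were not shown to differ for any collagen. The difference, the carbon-ion effect less the photon effect, passed for none of the 39 collagens and for 0.0781% of all genes tested (edgeR adjusted p under 0.05). At an unadjusted p under 0.05 there were 6 collagens, 15.4%, beside 13% of all genes, and DESeq2 called no collagen. The smallest p belonged to Col15a1, with a difference of 0.96 on the log2 scale (SE 0.34, edgeR adjusted p = 0.214), and to Col5a3, with 1.12 (SE 0.42, edgeR adjusted p = 0.245). Without carbon-ion control 5, which held the highest Col15a1 level of its group, the difference for Col15a1 was 1.26 (edgeR adjusted p = 0.0416), in a fit where 70 genes passed in all, against 16 with all libraries. The chains that passed after photons were thus not shown to be specific to photons.

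The 2 sets of untreated tumours differed in collagen when all libraries were used, but none of the calls held with M-titled libraries alone, with the title letter as a term or without the muscle-rich libraries. In the carbon-ion controls 7 chains passed as lower than in the photon controls and none passed as higher: Col1a2 of type I, Col5a1, Col5a2 and Col5a3 of type V, Col6a2 and Col6a3 of type VI, and Col23a1, a membrane-bound collagen. They are 17.9% of the 39 tested, beside 9.14% of all genes called in either direction and 4.01% called as lower (edgeR adjusted p under 0.05). These controls are shared with the treatment comparisons above, and Col5a3 and Col6a2 are in both lists.

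Col6a3 had 456, 653 and 879 CPM in the carbon-ion controls and 705, 1075 and 1478 in the photon controls, a log2 difference of -0.66 (SE 0.17, edgeR adjusted p = 0.0145). Every carbon-ion control lay below the median photon control, although the ranges overlap. Col23a1 had 6.31, 13.7 and 17.1 CPM and a mean of 24.8 ± 6.69 in the photon controls (SD, n = 8), a log2 difference of -0.99 (SE 0.28, edgeR adjusted p = 0.0248). Col5a3 had a log2 difference of -1.08 (edgeR adjusted p = 0.0192), Col5a1 of -0.79 (edgeR adjusted p = 0.0288) and Col5a2 of -0.63 (edgeR adjusted p = 0.0222). Again the ranges overlap, with 7 or 8 of 8 carbon-ion controls below the photon control median. Col6a2 and Col1a2 passed narrowly, at -0.44 (edgeR adjusted p = 0.0417) and -0.59 (edgeR adjusted p = 0.0479). Col1a1, at -0.61, did not pass (edgeR adjusted p = 0.0676). At an unadjusted p under 0.05 there were 16 collagens, 41%, beside 23.1% of all genes, and 27 of 39, or 69.2%, were below 0, beside 53.2% of all genes. The median over the fibrillar chains was -0.63.

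The arms also differ in their titles, since 4 of the 8 carbon-ion controls have a D and no photon control does. With M-titled libraries alone no collagen and 973 of 21134 genes passed between the controls, and with the title letter as a term 1 collagen, Col6a5, and 1081 of 20474 genes did. Without the 7 muscle-rich libraries no collagen and 501 of 21112 genes passed. For Col6a3 the log2 difference was -0.47, -0.53 and -0.56 in these fits, for Col23a1 it was -0.83, -0.85 and -1.20, for Col5a3 -0.84, -0.82 and -1.07, and for Col6a2 -0.33, -0.31 and -0.45. Leaving out 1 control at a time gave 1 to 11 collagens and between 1178 and 2180 of all genes: 1 without photon control 3, 2 without carbon-ion control 2 or 7, 3 without carbon-ion control 4, 4 without photon control 8 and 11 without carbon-ion control 5. Col6a3 passed in all 16 such fits, Col5a3 in 15, Col5a2 in 13, Col23a1 in 12, Col5a1 in 9, Col6a2 in 5 and Col1a2 in 3. All D titles are in the carbon-ion arm, so for those libraries the arm and the title letter cannot be told apart. Fibroblast markers were below 0 in this comparison for 14 of 14 genes, with Pdgfra passing and a summed level of 1159 to 2399 CPM in the carbon-ion controls. Endothelial markers were below 0 for 10 of 10 genes (median -0.44), with Emcn and Esam passing and sums of 223 to 429.7 CPM, and mural markers for 7 of 8, with sums of 211 to 536 CPM. Of 10 epithelial markers 9 were above 0, and 3 markers (Cdh1, Cldn4 and Cldn7) passed as higher in them. The part of these cells was not tested.

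Between the carbon-ion-treated and photon-treated tumours none of the 39 collagens passed, beside 5.08% of all genes tested (edgeR adjusted p under 0.05). With only the treated groups in the fit, 57 of 19232 genes passed in all. At an unadjusted p under 0.05 there were 7 collagens, 17.9%, beside 25.2% of all genes. DESeq2 called 2018 of 18092 genes and 1 collagen, Col7a1, the chain of the anchoring fibrils that tie epithelia to the stroma. Leaving out carbon-ion-treated tumour 1, 3 or 7 gave 1 chain each, Col7a1, Col4a3 and Col25a1 in turn. Over all genes, calls were 1840 and 2159 in the first 2 of these fits and fewer than the 1041 of all libraries in the fit that called Col25a1. Col1a1 means were 5199 ± 2210.4 CPM after carbon ions and 6119.8 ± 1534 after photons (SD, n = 8 each), and those of Col6a1 were 518 ± 86.7 and 539.8 ± 92.1.

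Ratios between partner chains varied from library to library. On the per-kilobase scale the level of Col1a1 was 1.59 ± 0.11 times that of Col1a2 (SD over 32 libraries, range 1.35 to 1.88) and that of Col6a1 was 1.71 ± 0.10 times that of Col6a2 (range 1.54 to 2.01). The level of Col4a1 was 1.74 ± 0.18 times that of Col4a2 (range 1.46 to 2.15), with 1.83 ± 0.16 in the photon controls and 1.62 ± 0.10 after photons. The ratio of Col6a3 to Col6a1 was 0.483 ± 0.090, with a range of 0.314 to 0.658, and that of Col5a1 to Col5a2 was 1.14 ± 0.20, with a range of 0.839 to 1.49 (SD over 32 libraries). The ratio of Col5a3 to Col5a1 was 0.258 ± 0.073 in the photon controls and 0.182 ± 0.024 after photons, beside 0.224 ± 0.045 and 0.228 ± 0.048 in the carbon-ion controls and treated tumours (SD, n = 8 each). The ratio of Col3a1 to Col1a1 was 0.578 ± 0.093 in the photon controls and 0.445 ± 0.095 after photons, beside 0.561 ± 0.113 and 0.562 ± 0.044 in the carbon-ion arm. These ranges overlap and the ratios were not tested.

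Levels of partner chains also moved together from library to library. With each group's mean removed, log2 CPM of Col1a1 and Col1a2 had a Pearson r of 0.98 and a Spearman rho of 0.97 over 32 libraries. Col6a1 with Col6a2 had r of 0.95 and rho of 0.95, Col4a1 with Col4a2 r of 0.89 and rho of 0.81, and Col5a1 with Col5a2 r of 0.89 and rho of 0.84. Col1a1 with Col5a2 had r of 0.96 and rho of 0.96, with Col3a1 r of 0.87 and rho of 0.82, and with Col6a3 r of 0.80 and rho of 0.82. Each of these 7 pairs had a permutation p of 1e-05, the smallest that 100000 permutations can give, and an adjusted permutation p of 1.56e-05 over the 14 relations computed for r and of 2e-05 for rho. Without the 2 libraries farthest from the median on the x axis, r stayed at 0.78 or above in all 7.

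Col1a1 moved with the fibroblast markers and Col4a1 with the endothelial markers from library to library. Whether these relations differ was not tested. Col1a1 with Col4a1 had r of 0.54 and rho of 0.55 (permutation p = 0.00122 and 0.00168, adjusted 0.00171 and 0.00235), and r was 0.62 without the 2 farthest libraries. Col1a1 with the mean log2 level of the fibroblast markers had r of 0.77 and rho of 0.74 (adjusted permutation p = 1.56e-05 and 3.11e-05), and 0.75 without those 2. Its relation to the epithelial markers did not pass, with r of -0.33 and rho of -0.24 (permutation p = 0.109 and 0.219, adjusted 0.118 and 0.236), but it passed without removal of the group means, with r of -0.54 (adjusted permutation p = 0.00154). The relation to the muscle markers did not pass, with r of -0.14 and rho of -0.12 (permutation p = 0.466 and 0.530, adjusted 0.466 and 0.530). Col4a1 with the endothelial markers had r of 0.78 and rho of 0.76 (adjusted permutation p = 1.56e-05 and 3.11e-05), and 0.68 without the 2 farthest libraries. Col4a1 also had r of 0.51 and rho of 0.44 with the fibroblast markers (adjusted permutation p = 0.00433 and 0.0197) and r of 0.54 and rho of 0.46 with the mural markers (adjusted permutation p = 0.00395 and 0.0170). The calls of both of these last relations rest on 2 libraries, photon-treated tumour 5 and carbon-ion control 7, without which they did not pass and r was 0.36 (adjusted permutation p = 0.0829) and 0.41 (adjusted permutation p = 0.0561). Within M-titled libraries, r was between 0.80 and 0.98 for the 7 chain pairs, 0.53 for Col1a1 with Col4a1, 0.80 for Col1a1 with the fibroblast markers, -0.42 with the epithelial and -0.12 with the muscle markers, and 0.80, 0.57 and 0.55 for Col4a1 with the endothelial, fibroblast and mural markers. No value was computed within the D-titled libraries alone.

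**Figure D5:**
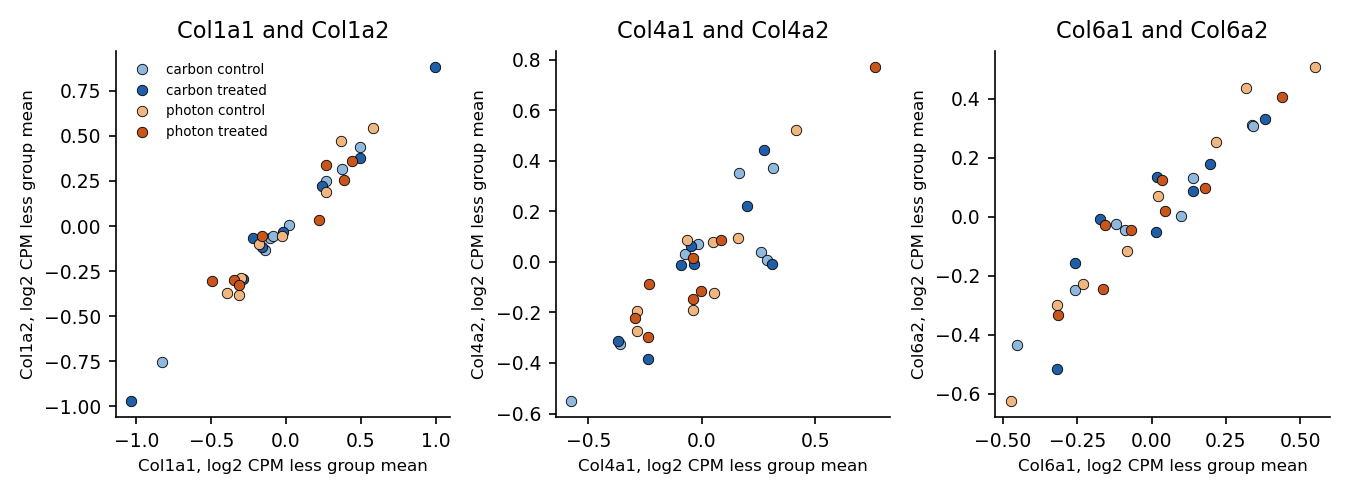
Log2 CPM less the group mean for Col1a1 and Col1a2, Col4a1 and Col4a2, and Col6a1 and Col6a2, with 1 point per library, coloured by group. Partner chains lie along a line in all 4 groups, with r of 0.98, 0.89 and 0.95 from left to right.

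Among the genes that build and remodel collagen, 4 fell after photons, none passed after carbon ions, and more passed between the controls. The calls in these lists are those of the main fit only. Without the muscle-rich libraries, calls over all genes fell from 781 to 2 after photons and from 1871 to 501 between the controls. Of 24 genes for folding and modification, 2 passed as lower after photons and none as higher, beside 2.1% of all genes called as lower: Serpinh1, the collagen chaperone HSP47, with a log2 fold change of -0.71 (SE 0.18, edgeR adjusted p = 0.0238), and P3h1, a prolyl 3-hydroxylase, with -0.45 (SE 0.12, edgeR adjusted p = 0.0331). In all, 22 of the 24 were below 0, with a median of -0.29. Of 14 tested genes for breakdown and its inhibitors, 2 fell after photons: Fap, a serine protease of activated fibroblasts, with -0.59 (edgeR adjusted p = 0.0322), and Timp1, an inhibitor of metalloproteinases, with -1.02 (edgeR adjusted p = 0.0364). These act in opposite directions on the matrix, as protease and inhibitor. No gene passed among 13 for propeptide cleavage and crosslinking (median -0.28), 9 receptors (-0.07), 17 fibril-associated proteins (-0.34) and 16 basement membrane partners (-0.16). After carbon ions no gene of any of the 6 lists passed. Between the controls 8 of the 24 folding and modification genes passed as lower in the carbon-ion controls, beside 4.01% of all genes, and none passed as higher, with a median of -0.27. Also lower there were Bmp1 and Adamts14 of 13 cleavage and crosslinking genes, Mmp13 and Mmp14 of 14 breakdown genes, Fn1 of 17 fibril-associated proteins, and Lamb1 and Pxdn of 16 basement membrane partners, while Mmp15 was higher and no receptor passed. Between the treated groups Lair1 and Lama3 were higher after carbon ions, beside 726 of all 20474 genes. These 10 genes fall outside the rule for named genes and were chosen after their values were seen.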

How the data were processed

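RNA of 32 tumour libraries was sequenced from a stranded mRNA kit, per the labels' protocols. The authors deposited 1 table of estimated counts per gene, of which none of the 853648 values above 0 is whole. FastQC 0.12.0, Trimmomatic 0.32, RSEM 1.3.3 and the build mm10 are named, per the submitters' processing notes, with no role or order. The gene annotation and strand setting are not given in the sources used here. Estimated counts can split reads between similar genes. The counts were rounded, which changed no library total by more than 0.00403%.

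Genes were filtered with filterByExpr (minimum count 10), scaled by TMM and tested with edgeR 4.0.16 (quasi-likelihood, 1 model of 4 groups over 32 libraries, 5 contrasts), with Benjamini-Hochberg adjustment over 20474 genes and a threshold of 0.05. The planned test assumed whole counts. CPM are per 1000000 TMM-scaled counts, log2 CPM used a prior count of 2, and levels between genes were divided by merged exon length (GENCODE M21). Library totals of 13892423 to 71645740 limit the precision of chains near the filter. Groups came from the treatment labels, and libraries are numbered in accession order. Named collagens were 10 abundant chains of types I, III, IV, V and VI, every chain that passed in any contrast, and the 2 with the smallest p where none passed in an effect or the difference. Pathway genes were named where they passed in an effect or the difference, at most 4 per list. Members and lists were chosen with earlier results of these data known. Alternatives were RLE and upper-quartile scaling, no filter, DESeq2 1.42.0, limma 3.58.1 (voom), only the groups compared, M-titled libraries, the title letter as a term and each library left out. Leaving out muscle-rich libraries was chosen after seeing the data. The fit was tested on simulated data.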

Additional observations from a re-analysis of the deposited data

Results flagged for a closer look

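Among 60 combinations of a named collagen and a group, 4 held 1 library far from the other 7 of its group. The measure was Dixon's ratio of the gap to the range, taken on log2 CPM, where chance gives about 1 in 20. In photon-treated tumour 5, Col4a1 was at 929.7 CPM, beside 447 to 581 in the others, and its neighbour and partner Col4a2 was at 564 CPM, beside 269 to 351. The summed endothelial markers in that library were the highest of the group, at 531 CPM. In photon control 3, Col4a2 was at 579.9 CPM, beside 334 to 431, again in the library with the highest endothelial sum of its group, at 649 CPM. In carbon-ion control 5, Col15a1 was at 299 CPM, beside 74.2 to 133.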

How the results depend on the processing

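No paired analysis was possible because the labels give no replicate numbers. The carbon-ion effect kept 0 collagens under every alternative run. For the photon effect, RLE, upper-quartile scaling and the title letter as a term called the same 4 collagens (and 798, 960 and 722 of all genes), M-titled libraries gave 4 (Col6a6 in place of Col6a1; 664 of all genes), limma-voom gave 3 (without Col5a3; 701), the fit of only the groups compared gave 3 (Col15a1, Col14a1 and Col6a6; 852), no filter gave 1 (Col15a1; 431 of 38319) and DESeq2 gave 8 (adding Col14a1, Col3a1, Col4a1 and Col6a6), beside 1518 of all genes. All photon libraries have an M, so the title letter as a term and the M-titled fit cannot check the letter in the photon effect. Without the muscle-rich libraries the photon effect and the controls each gave 0. Leaving out 1 library gave 1 to 6 for the photon effect (239 to 1656 of all genes), 0 to 1 for the difference (5 to 108), 1 to 11 for the controls (1178 to 2180) and 0 to 1 between the treated groups (108 to 2159). DESeq2 gave 11 for the controls, beside 2379 of all genes, and 1 between the treated groups, limma-voom and no filter each gave 5 for the controls (without Col1a2 and Col6a2; 1987 and 1383 of all genes), only the groups compared gave 8 (adding Col1a1 and Col6a5, without Col6a2; 2219), M-titled libraries gave 0 for the controls and the title letter as a term gave 1. For the controls, RLE called the same 7 collagens (1852 of all genes) and upper-quartile scaling called 8 (adding Col6a1; 2152). Without removal of the group means Col1a1 with the epithelial markers had r of -0.54 (adjusted permutation p = 0.00154). Without the 2 farthest libraries Col4a1 had r of 0.36 with the fibroblast and 0.41 with the mural markers.

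Some uncalled log2 fold changes near 0 changed sign. After carbon ions these were Col1a1 (-0.00030 with upper-quartile scaling, -0.052 with limma-voom, -0.038 with the title letter, -0.027 without the muscle-rich libraries), Col5a1 (-0.019 with limma-voom, -0.041 with the title letter) and Col5a3 (-0.0056 with limma-voom, -0.024 with the title letter). After photons Col26a1 changed sign (0.41 with limma-voom, 0.32 without the muscle-rich libraries). The cause was not tested. Leaving out 1 library, the log2 fold change ran from -0.18 to 0.12 for Col1a1, from -0.094 to 0.17 for Col1a2, from -0.25 to 0.14 for Col3a1, from -0.18 to 0.14 for Col5a1, from -0.14 to 0.22 for Col5a3, from -0.19 to 0.19 for Col15a1 and from -0.096 to 0.22 for Col23a1 (carbon-ion effect); from -0.39 to 0.12 for Col26a1 (photon effect). Depth limits the chains near the filter, such as Col25a1.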

Other observations

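Several chains outside the named set were looked at after their values were seen. Col14a1, a fibril-associated collagen, had a lowest, median and highest level of 51.2, 85.0 and 181 CPM in the photon controls and 26.2, 40.9 and 77.2 after photons, with all 8 treated libraries below the control median and a log2 fold change of -1.01 that missed the threshold (SE 0.31, edgeR adjusted p = 0.0567). Col18a1 had 615, 795 and 946 CPM and then 581, 658 and 783, also with all 8 below the control median, and a log2 fold change of -0.23 (edgeR adjusted p = 0.140). Col12a1, a fibril-associated collagen of tissues under tension, was an abundant chain with values of the other sign: 695, 1021 and 1726 CPM and then 656, 1226 and 1753, a log2 fold change of 0.13 (edgeR adjusted p = 0.787). Col7a1 had 36.8, 68.1 and 117.1 CPM in the photon controls and 52.8, 88.2 and 348 after photons, a log2 fold change of 0.66 (edgeR adjusted p = 0.262), and 1 photon-treated library held its highest level. In the carbon-ion arm Col20a1 had 0.887, 2.08 and 3.86 CPM in the controls and 2.13, 3.301 and 4.48 after treatment, with all 8 treated libraries above the control median (log2 fold change 0.59, edgeR adjusted p = 0.971).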
